A study of Mus musculus with 9 samples.

Results

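The genes described here are the Rab, syntaxin (Stx), sorting nexin (Snx) and Vps genes of the mouse, chosen by symbol: one of these 4 stems, a number and at most 2 further letters, leaving out Vps37b and symbols containing -ps. The rule used no measured value and took 129 of the 22526 genes in the table: 54 Rab, 14 Stx, 30 Snx and 31 Vps genes. The reference annotation holds 141 such symbols, and the other 12 were not analysed here. A symbol is not always a role: Rab3ip is an exchange factor for Rab proteins, Rab10os and Rab26os are antisense RNAs, and Vps72 is a subunit of chromatin-remodelling complexes.

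Membrane traffic moves cargo between organelles in vesicles. Rab proteins are small GTPases that switch on a particular membrane and recruit the factors that move, tether and fuse vesicles there, and syntaxins are SNARE proteins that carry out the fusion. Sorting nexins bind endosomal lipids through a PX domain and shape or sort recycling carriers, while Vps proteins build retromer, ESCRT, HOPS and related complexes that sort and deliver endosomal cargo. In the egg this machinery supplies the plasma membrane, stores and releases cortical granules at fertilisation, and moves the vesicles that carry actin networks through the cytoplasm.

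The samples were metaphase II oocytes of ICR mice, an outbred strain, in 3 groups of 3 libraries: young, aged, and a group labelled NMN, for nicotinamide mononucleotide, a precursor of the coenzyme NAD. The title speaks of this supplement in maternally aged oocytes, while the sample labels state neither how old the NMN group was nor whether animals or cultures received it. The labels give no age in weeks, dose or route and do not say how many oocytes, animals or cultures stand behind a library, so the p-values below speak only of the scatter among libraries, part or all of which may be technical. The comparisons were aged against young, and NMN against each of these. Libraries were made from polyadenylated RNA by oligo(dT)-primed full-length amplification (Smart-seq2). Levels are FPKM, fragments scaled to transcript length and library size. Levels of different genes are set side by side with the limit that priming on poly(A) tails may capture transcripts unequally, which was not measured.

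Depth as recovered from the values was 16.28 to 19.25 M reads per library, so that 1 FPKM of a 2 kb transcript stands for 32.6 to 38.5 reads and a count of 0 allows up to 0.0779 to 0.0922 FPKM (3 reads, counting error only). All 12 oocyte markers were in the table, with a summed level of 12140 to 16030 FPKM in young, 16540 to 18600 FPKM in aged and 14610 to 18390 FPKM in NMN libraries. The aged sums lay above the young ones without overlap. Of the 11 oocyte markers tested, 10 had a higher mean in aged, as did 4109 of all 9168 tested genes. At an unadjusted p under 0.05 stood 4 (36.4%, against 18.3% of all tested genes), and Zp3 was called by limma. From aged to NMN, 10 of the 11 had a lower mean, as did 4288 of the 9168. There 2 had an unadjusted p under 0.05 (18.2%, against 11.3%), and 0 were called by limma. The part of these markers in the results on aged and NMN oocytes was not tested. For cumulus and granulosa cells, the somatic cells around the oocyte, 13 of 14 markers were in the table, and their summed level was 25.3 FPKM in aged 2 against 5.25 to 8.91 in the other 8 libraries. Ptx3, Inha, Fst, Tnfaip6 and Foxl2 were listed at 0 in those 8 libraries, and Ptx3 stood at 6.37 FPKM in aged 2. Cyp19a1 of the same list went the other way, at 3.03 FPKM in aged 2 and 3.05 to 6.21 FPKM in the other 8. Every aged and NMN library held less Cyp19a1 than every young one. Young 1, aged 2 and NMN 1 also stood apart from their own groups in the same direction: across genes, their deviations from the group means correlated pairwise at 0.448 to 0.523, computed over genes, which are not independent. Values without these libraries together are given below for Snx3, Rab35, Rab3b, Rab3d and Rab33b. For other single genes they are not given. In bulk RNA, fewer cells of a type and less RNA per cell cannot be told apart.

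Most of these genes were detected, and a few were abundant. Of the 129 genes, 83 reached 1 FPKM in at least 3 libraries and were tested (33 Rab, 8 Stx, 17 Snx and 25 Vps). Of the other 46, 38 were above 0 but below 1 FPKM in every library, 8 reached 1 FPKM in 1 or 2 libraries, and 0 were listed at 0 throughout. At the edge of this filter, the third-highest value was 1.03 FPKM for Vps13c, just inside, and 0.895 FPKM for Rab17, just outside. A mean of at least 10 FPKM over the 9 libraries was reached by 33 genes, and of at least 50 FPKM by 13.

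The abundant Rab genes covered the late endosome, the recycling endosome, the Golgi and regulated secretion. Rab7, which directs late endosomes to lysosomes, averaged 135 FPKM (68.0 to 182 over the libraries), and Rab3d, a Rab of secretory granules, 97.4 FPKM. Rab11a, which marks recycling endosomes and the actin-carrying vesicles of the mouse oocyte, averaged 92.4 FPKM, and Rab6a, a Golgi Rab, 91.9 FPKM. The order among these 4 is not separated by their spread, since their ranges overlap. The 7 early-endosome Rab genes were low by comparison, with a sum of 27.4 to 51.2 FPKM per library, under every library's value of Rab7. Among them Rab4a averaged 17.4 FPKM and Rab21 8.51 FPKM. Lower still were Rab31 (2.56 FPKM), Rab5a at 2.09 FPKM (1.51 to 3.15), Rab5c at 2.02 FPKM (1.01 to 3.08), Rab5b (0.999 FPKM) and Rab22a (0.888 FPKM).

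Among the sorting nexins, Snx2, a retromer-linked BAR-domain protein, averaged 116 FPKM (98.3 to 141) and Snx9, which acts with dynamin and actin in endocytosis, 101 FPKM (83.5 to 115). Snx16 followed at 80.3 FPKM and Snx11 at 50.5 FPKM. Stx12, an endosomal syntaxin, led its family at 63.8 FPKM (49.4 to 82.6), ahead of the late-endosomal Stx7 at 27.8 FPKM (17.4 to 33.3), with no overlap between them. The plasma-membrane syntaxins were near the lower limit: of the 6 measured, Stx2 alone was tested, at 1.05 FPKM, while Stx3 averaged 0.217 FPKM and Stx4a 0.523 FPKM. Among the Vps genes, Vps26a, a retromer subunit, stood at 80.9 FPKM (53.3 to 106), above its retromer partners Vps35 at 16.8 FPKM and Vps29 at 5.64 FPKM. Vps72, the chromatin protein, was the most abundant by symbol at 123 FPKM.

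Subunits of one complex differed widely in level. The HOPS and CORVET complexes, which tether late and early endosomes, share a core with Vps11, Vps16, Vps18 and Vps33a. Vps11 averaged 2.27 FPKM, Vps33a 0.0708 FPKM and Vps18 0.0246 FPKM, both of the latter means below the limit that a count of 0 allows for a 2 kb transcript. The HOPS-specific subunits were higher, with Vps39 at 11.5 FPKM and Vps41 at 3.02 FPKM.

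**Figure D1:**
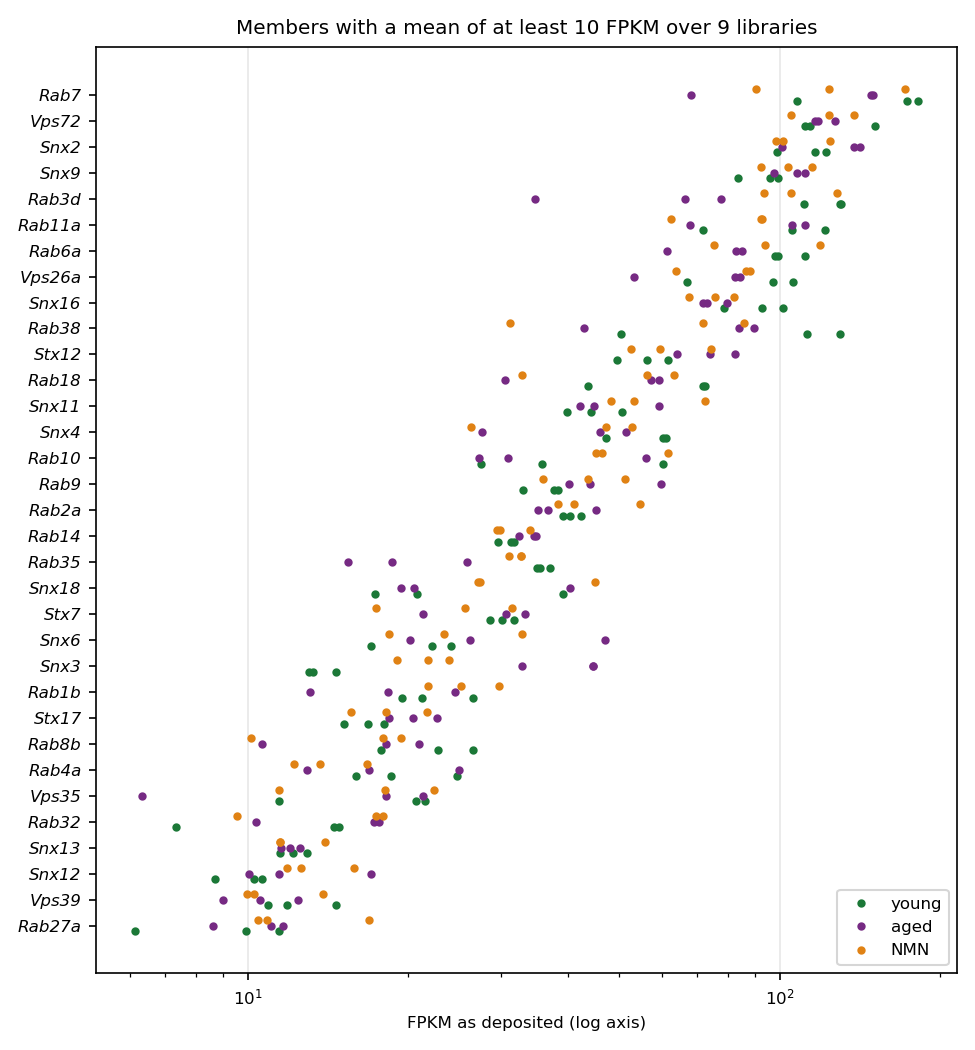
Level of each gene with a mean of at least 10 FPKM, 1 point per library (horizontal log axis, FPKM as deposited; rows are the 33 genes; colours are the young, aged and NMN groups). Rab7, Vps72, Snx2 and Snx9 lead, and for most genes the points of the 3 groups overlap.

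Genes that carry the same number, as close relatives, were represented mainly by a single copy in some sets and shared between copies in others. In 17 such sets, one gene held over 80% of the summed FPKM in all 9 libraries in 9 sets, and in 7 of the 11 sets with a summed mean of at least 10 FPKM. Rab11a held 97.6% to 99.4% of the Rab11 total. Outside these sets, Snx2 held 98.8% to 99.8% of the Snx1 and Snx2 total. How reads were shared between near-identical sequences is not given in the sources used here. Processed copies with -ps symbols exist for Rab5a, Rab7, Rab9b and Rab11b, so the levels of these 4 genes are uncertain to that degree.

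Between aged and young oocytes, 3 of the 83 tested genes changed: Snx3 and Rab3b rose and Rab35 fell. The share called over all 9168 tested genes was 2.18%, 1.27% higher and 0.916% lower (limma on log2 of scaled FPKM + 1, Benjamini-Hochberg adjusted p under 0.05 over all tested genes). Of the 83, 33 had a higher and 50 a lower mean, with a median log2 change of -0.095, beside -0.048 over all tested genes. The libraries of the 2 groups did not overlap for 27 of the 83 (32.5%), 11 higher and 16 lower in aged, against 23.8% of all tested genes (12.6% higher and 11.2% lower). At an unadjusted p under 0.05 stood 14 (16.9%), against 18.3% of all tested genes. The counts called and at an unadjusted p were thus near those over all genes.

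Snx3, a sorting nexin of little more than a PX domain that works with retromer to return cargo from endosomes, was read at 13.3, 14.6 and 13.0 FPKM in the young libraries. It stood at 32.8, 44.5 and 44.6 FPKM in the aged libraries and at 23.9, 19.0 and 21.8 FPKM in the NMN libraries. The 3 groups did not overlap, and the NMN libraries lay between the other two. Group means were 13.7 ± 0.876, 40.6 ± 6.78 and 21.6 ± 2.45 FPKM (SD, n = 3), 2.98 times higher in aged than in young. The log2 change from young to aged was 1.43 ± 0.17 (SE), with a limma adjusted p of 0.00482. Snx3 was called with each library left out in turn (adjusted p up to 0.0392) and under each of the 9 other settings tried in limma. Without young 1, aged 2 and NMN 1 the log2 change was 1.41.

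Rab35, which returns membrane from endosomes to the cell surface and acts in cytokinesis, was read at 37.0, 35.01 and 35.4 FPKM in young libraries. In aged libraries it stood at 18.7, 25.8 and 15.4 FPKM, and in NMN libraries at 31.0, 32.7 and 32.6 FPKM. Every aged library lay below every young and every NMN library. The young mean of 35.8 ± 1.05 FPKM and the aged mean of 19.99 ± 5.32 FPKM (SD, n = 3) differed by a log2 change of -0.90 ± 0.18 (limma adjusted p = 0.0358). The call was lost without any 1 of young 1, young 2, young 3, aged 1, aged 3 or NMN 3, with a limma adjusted p of up to 0.141 (without young 3). It was also lost with FPKM as deposited (limma adjusted p = 0.0608), with no filter on low values (0.104), with only the 2 groups fitted (0.0746) and with the replicate block (0.0703), and held in 5 of the 9 other settings tried. It held without young 1, aged 2 and NMN 1 together (limma adjusted p = 0.0254).

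Rab3b, one of the Rab3 proteins of regulated secretion, was read at 2.75, 3.02 and 1.61 FPKM in young libraries and at 5.52, 12.3 and 6.32 FPKM in aged libraries. The NMN libraries held 2.73, 1.88 and 2.56 FPKM, within the range of the young. All aged libraries lay above the other 6, and aged 2, the library with the highest summed cumulus and granulosa markers, was the highest. The aged mean of 8.06 ± 3.73 FPKM was 3.28 times the young mean of 2.46 ± 0.75 FPKM (SD, n = 3), with a log2 change of 1.29 ± 0.26 (limma adjusted p = 0.0375). Without aged 2 the log2 change was 1.03 and the limma adjusted p 0.0478. The call was lost without any 1 of young 1, young 2, young 3, aged 3 or NMN 3 (limma adjusted p up to 0.149) and without young 1, aged 2 and NMN 1 together (0.0572). It was lost, too, with FPKM as deposited (limma adjusted p = 0.0518), with no filter on low values (0.124), with only the 2 groups fitted (0.0689) and with the replicate block (0.0687), and held in 3 of the 8 other settings that could test it.

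**Figure D2:**
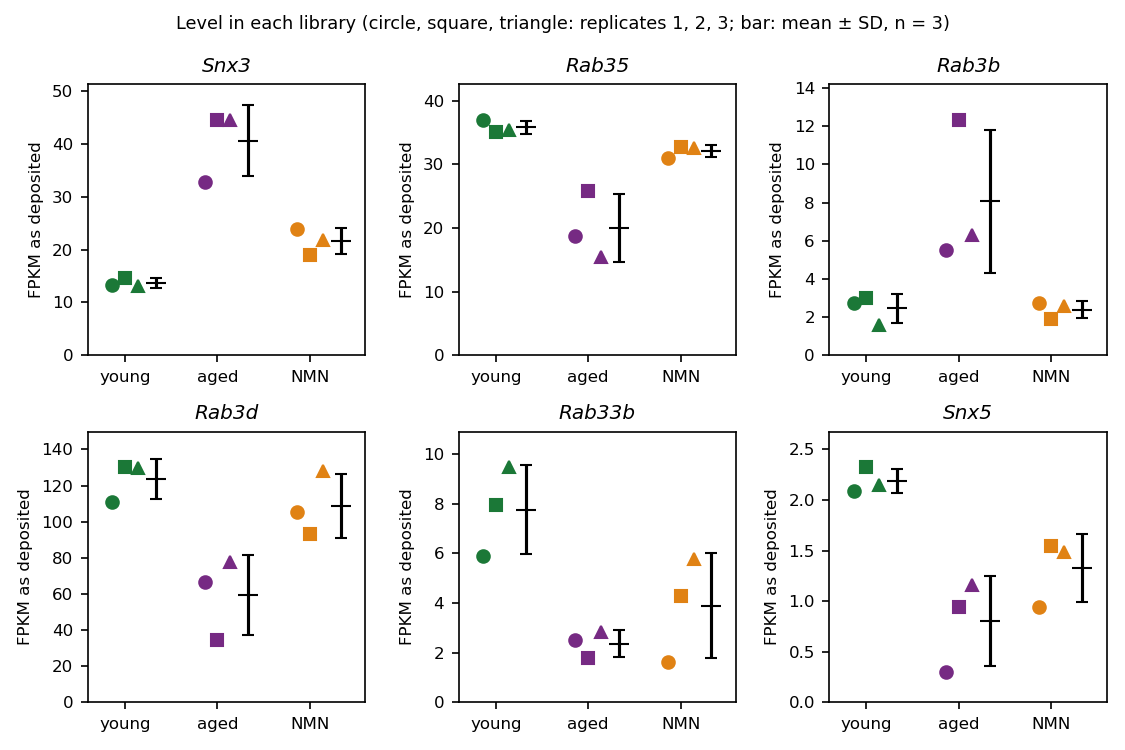
Level in each library of 6 genes (vertical axis, FPKM as deposited; points are libraries, shapes are replicate numbers, bars are the group mean ± SD, n = 3). The aged libraries of Snx3 and Rab3b lie above, and those of Rab35, Rab3d, Rab33b and Snx5 below, every young library.

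The libraries were primed on poly(A) tails, and the 3′ end of a transcript carries the elements through which an oocyte sets tail length. The ends of the 3 genes called are therefore shown as the longest annotated coding transcript has them (GENCODE M21, GRCm38, transcript strand), with the polyadenylation signal AATAAA in capitals. The Snx3 transcript (chromosome 10, 1401 nucleotides) has the signal starting 18 bases from its end, that of Rab35 (chromosome 5, 2820 nucleotides) 26 bases and that of Rab3b (chromosome 4, 3327 nucleotides) 36 bases.
Snx3: aagttgttttcaAATAAAagttgaaatgca
Rab35: aaaaatactaaaAATAAAggttcaagctgc
Rab3b: gggcttaagcaaAATAAAatgcccattgct

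A cytoplasmic polyadenylation element, searched as TTTTAT or TTTTAAT on the transcript strand in the last 100 bases, was in none of these 3 ends. It was in 17 of the 83 tested genes (20.5%), beside 21.8% of the 7959 tested genes with a usable end. The signal, as AATAAA or ATTAAA in the last 40 bases, was in 63 of the 83 (75.9%), beside 78.9%. Rab11a and Rab6a, among the most abundant of the genes, hold the element and are shown as examples, with it in capitals. The still more abundant Rab7, Vps72, Snx2, Snx9 and Rab3d do not hold it. These are matches of letters in an annotated end, and the tail of no transcript was measured.
Rab11a: tttggacttttTTTTAATctattgatttgg
Rab6a: ttgactcttttgTTTTATtttgacatggca

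The Rab3 genes, whose proteins guide secretory granules to the plasma membrane and of which Rab3a has been studied in cortical granule release, differed in opposite directions. Rab3d, the abundant copy, was read at 111, 130.3 and 129.7 FPKM in young, 66.4, 34.7 and 77.4 FPKM in aged and 105, 93.3 and 128 FPKM in NMN libraries. Its aged libraries lay below the other 6, and aged 2 was the lowest. The log2 change from young to aged was -1.18 ± 0.31 and did not pass (limma adjusted p = 0.0842). Without aged 2 it was -0.77 (limma adjusted p = 0.055), and without young 1, aged 2 and NMN 1 it was -0.85 and passed (0.0363). With library quality weights it also passed (limma adjusted p = 0.0152), and under no other setting tried.

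Rab3a averaged 4.53 ± 0.235 FPKM in young, 7.24 ± 1.28 in aged and 4.83 ± 0.844 in NMN oocytes (SD, n = 3), with the aged libraries above the other 6. Its log2 change from young to aged was 0.51 ± 0.18, and it did not pass (limma adjusted p = 0.172). Rab3d made up 94.6% ± 1.0 of the summed Rab3 FPKM in young libraries, whereas it made up 77.6% ± 13.1 in aged libraries and 93.8% ± 0.7 under NMN. The aged libraries held 83.9%, 62.5% and 86.3%, each below every other library, the lowest being aged 2. This share was set together from the genes above and was not tested. Rab27a, the other secretory Rab tested, ranged from 6.15 to 16.9 FPKM with all groups overlapping.

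**Figure D3:**
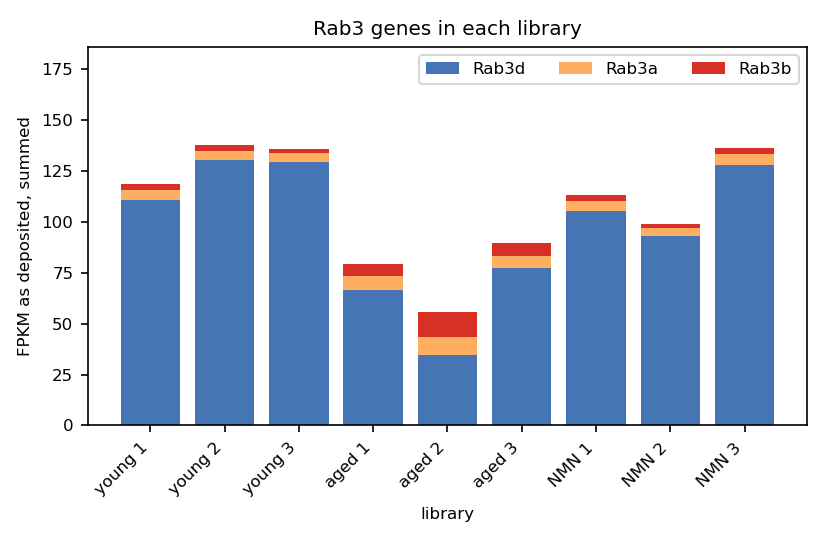
Summed FPKM as deposited of Rab3d, Rab3a and Rab3b in each library (stacked bars from 0; horizontal axis, the 9 libraries). Rab3d is the lower segment and is shortest in the 3 aged libraries, where Rab3a and Rab3b take a larger part.

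Of the 7 tested Rab genes of the ER and Golgi, 0 were called by limma, and 2 had an unadjusted p under 0.05 (28.6%, against 18.3% of all tested genes). Rab33b, a Golgi Rab that also acts in autophagosome formation, was read at 5.88, 7.93 and 9.47 FPKM in young, 2.5, 1.77 and 2.83 FPKM in aged and 1.61, 4.26 and 5.78 FPKM in NMN libraries. The aged libraries lay below the young, while the NMN libraries spread from below the aged to just under the lowest young value. The log2 change of -1.42 ± 0.35 between aged and young did not pass (limma adjusted p = 0.0711), but did with only these 2 groups fitted (0.0421), the setting that lost Rab35 and Rab3b, and without young 1, aged 2 and NMN 1 (0.0171). It also passed with library quality weights (limma adjusted p = 0.0109) and without NMN 1 alone (0.0275), and under no other setting tried. Rab1a, which serves transport from the ER to the Golgi, averaged 2.45 ± 0.595 FPKM in young and 4.51 ± 1.03 in aged oocytes (limma adjusted p = 0.161).

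The 7 early-endosome Rab genes held a narrow range, with log2 changes of -0.20 to 0.12 between aged and young and none with libraries that did not overlap. Of the 8 tested Rab genes of recycling and polarised delivery, Rab35 alone was called. Rab11a stood at 99.7 ± 25.3 FPKM in young and 95.0 ± 23.6 in aged oocytes (log2 change -0.13 ± 0.31), and Rab14, which acts between the Golgi and endosomes, at 30.8 ± 1.11 and 33.9 ± 1.37. Among the 5 of late endosomes and lysosomes, 0 were called by limma and 0 had an unadjusted p under 0.05. Rab7 there had a log2 change of -0.45 ± 0.40.

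Of the 8 tested syntaxins 0 were called by limma between aged and young, and 2 had an unadjusted p under 0.05, both lower in aged (25.0%, against 18.3% of all tested genes). Stx6, a SNARE of the trans-Golgi network and early endosomes, was read at 10.2, 8.88 and 9.85 FPKM in young, 5.97, 2.81 and 6.17 FPKM in aged and 4.73, 6.25 and 7.95 FPKM in NMN libraries. Young libraries lay above all others, with a log2 change of -0.93 ± 0.30 (limma adjusted p = 0.14). Stx8, a late-endosomal SNARE, averaged 4.55 ± 0.463, 2.97 ± 0.406 and 2.31 ± 0.429 FPKM in young, aged and NMN oocytes, again with the young libraries on top (aged against young, limma adjusted p = 0.152). Stx17, the autophagosomal syntaxin, stood higher in each aged library (18.5 to 22.7 FPKM) than in each young one (at most 18.03 FPKM), by a log2 change of 0.22 ± 0.17 (limma adjusted p = 0.517).

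Among the retromer-linked BAR-domain nexins, Snx5, a partner of Snx1 and Snx2, was read at 2.09, 2.33 and 2.15 FPKM in young, 0.304, 0.941 and 1.16 FPKM in aged and 0.939, 1.55 and 1.49 FPKM in NMN libraries. The young libraries did not overlap with either other group. The log2 change from young to aged was -0.90 ± 0.22 and did not pass (limma adjusted p = 0.0727). It passed with library quality weights (limma adjusted p = 0.024) and under no other setting tried. Its close relative Snx6 had a log2 change of 0.40 ± 0.28 (limma adjusted p = 0.479), and made up 90.4% ± 1.6, 97.1% ± 2.3 and 94.5% ± 2.5 of the pair's FPKM in young, aged and NMN libraries. Snx2 had a log2 change of 0.10 ± 0.22 and Snx9 of 0.12 ± 0.16. Snx25, which carries an RGS domain, averaged 5.28 ± 0.412 FPKM in young and 3.6 ± 0.926 in aged oocytes (limma adjusted p = 0.24).

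Of the 25 tested Vps genes, 0 were called by limma between aged and young and 3 had an unadjusted p under 0.05 (12.0%, against 18.3% of all tested genes). Libraries did not overlap for 8 (32.0%, against 23.8%), 1 higher and 7 lower in aged, where 12.6% and 11.2% of all tested genes were; the difference of these shares was not tested. The 3 at an unadjusted p under 0.05 were Vps4a, the ATPase that disassembles ESCRT-III, at 5.36 ± 0.26 FPKM in young and 3.63 ± 0.525 in aged (limma adjusted p = 0.186), the HOPS and CORVET core subunit Vps11 at 3.23 ± 1.51 and 1.31 ± 0.569 (0.214), and Vps52 of the GARP and EARP tethers at 1.04 ± 0.159 and 2.02 ± 0.432 (0.223). Vps26a, Vps29, Vps35 and Vps35l, the 4 tested subunits listed for retromer and retriever, had log2 changes of -0.37 to -0.13, none called. Vps26c, a retriever subunit outside that list, stood at 7.81, 12.3 and 9.58 FPKM in young libraries. In aged libraries it stood at 6.72, 5.96 and 7.56 FPKM, each below every young one, and was not called. Vps54, the GARP-specific subunit, averaged 1.65 ± 0.0201 FPKM in young against 1.05 ± 0.27 in aged oocytes, and Vps13b, a lipid-transfer protein of the Golgi, at 1.99 ± 0.133 and 1.32 ± 0.305; neither passed (limma adjusted p = 0.282 and 0.274). Vps37b, an ESCRT-I subunit outside the rule, stood at 10.2 ± 0.766 FPKM in young and 3.37 ± 1.44 in aged oocytes (limma adjusted p = 0.0443).

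Between NMN and aged oocytes 0 of the 83 genes were called by limma, where 0.218% of all 9168 tested genes were. At an unadjusted p under 0.05 stood 5 (6.0%), against 11.3% of all tested genes, and libraries did not overlap for 10 (12.0%), against 15.6% (5 higher and 5 lower in NMN, against 9.09% and 6.51%). The means of 43 were higher and of 40 lower, with a median log2 change of 0.01, beside 0.025 over all tested genes. The 5 were Rab35 and Rab3d, higher in NMN, and Snx3, Rab3a and Rab3b, lower in NMN. This comparison shares its aged libraries with the one above, so the same 3 aged libraries set the values on both sides.

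For Snx3 the log2 change from aged to NMN was -0.87 ± 0.17 (limma adjusted p = 0.1) and the change from young to NMN 0.57 ± 0.17 (limma adjusted p = 0.36, or 0.539 with the replicate block). For Rab35 the values were 0.69 ± 0.18 (limma adjusted p = 0.179) and -0.21 ± 0.18 (limma adjusted p = 0.785). For Rab3b they were -1.34 ± 0.26 (limma adjusted p = 0.0988) and -0.05 ± 0.26 (limma adjusted p = 0.959). Each of the 3 had NMN libraries that did not overlap with the aged ones, and the difference did not pass the test. With library quality weights these 3 were called (limma adjusted p = 0.0141 for Snx3, 0.0189 for Rab35 and 0.0279 for Rab3b).

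**Figure D4:**
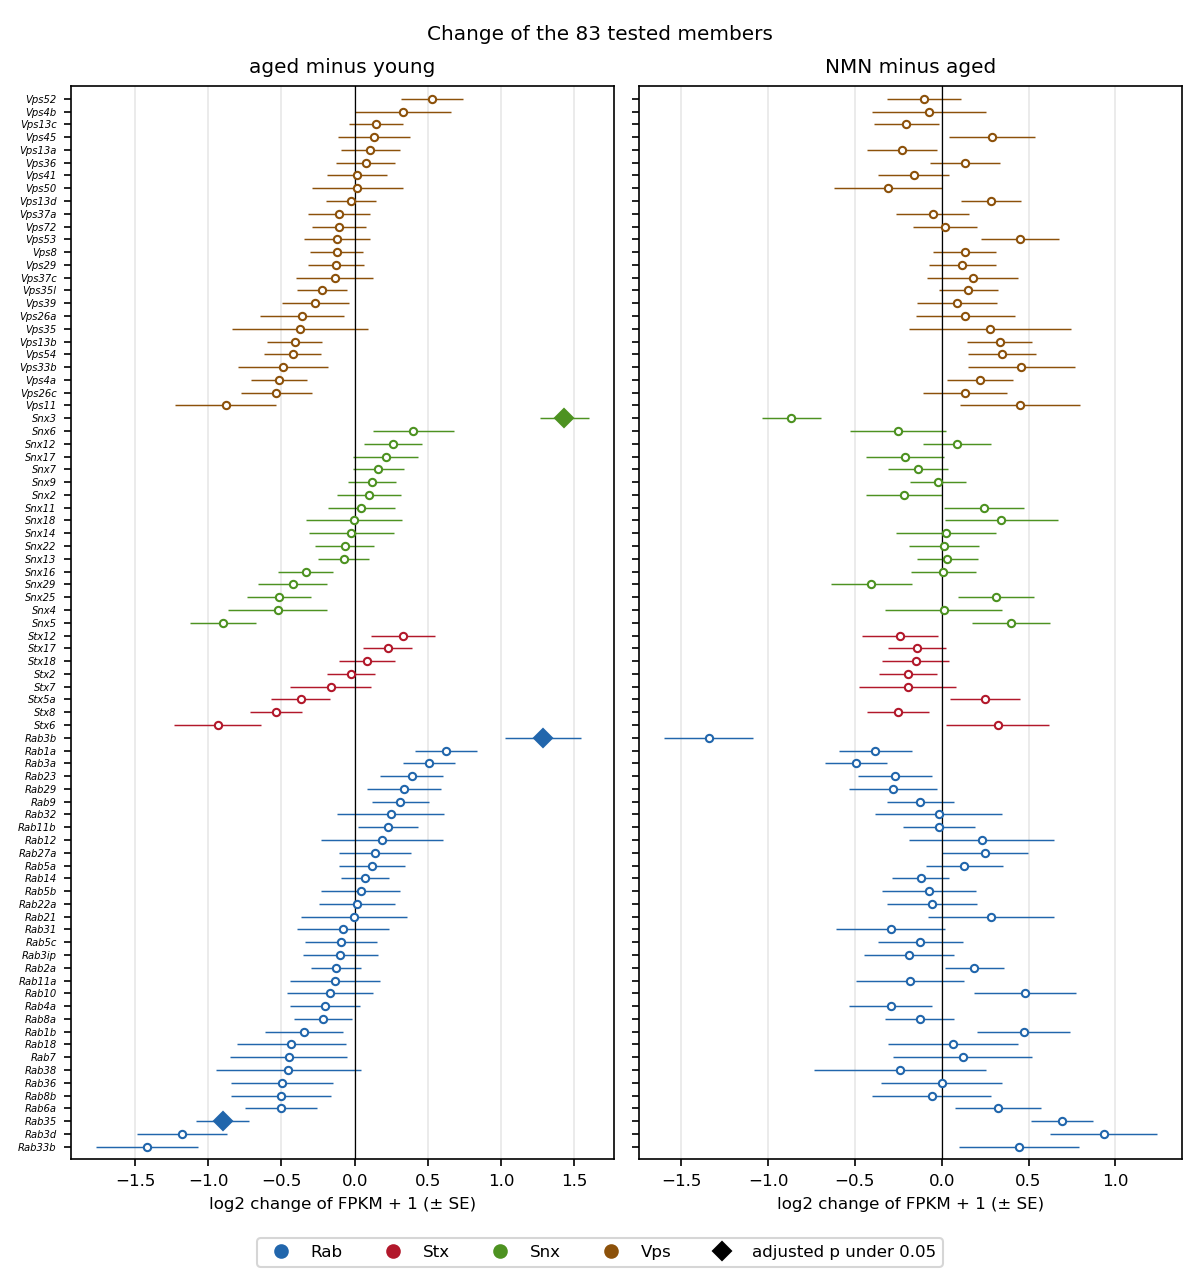
Log2 change of scaled FPKM + 1 with its SE for the 83 tested genes, aged minus young on the left and NMN minus aged on the right (rows are genes, grouped and coloured by family; filled diamonds are genes with an adjusted p under 0.05). Snx3, Rab3b and Rab35 are the diamonds on the left, and there is none on the right; both panels share the aged libraries.

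Between NMN and young oocytes 0 of the 83 were called by limma, where 0.0764% of all tested genes were (0.0654% higher and 0.0109% lower), and 5 (6.0%) had an unadjusted p under 0.05, against 8.13%. Libraries did not overlap for 13 (15.7%), 4 higher and 9 lower in NMN, against 16.6% of all tested genes (9.58% higher and 6.99% lower). The 5 were Snx3, higher in NMN, and Stx8, Snx29, Rab33b and Snx5, lower in NMN. Stx8 had a log2 change of -0.79 ± 0.18 (limma adjusted p = 0.227). Snx29, a sorting nexin, lay below the young range in each NMN library, at 3.15, 4.23 and 6.01 FPKM against 7.83, 7.34 and 9.41 FPKM (log2 change -0.83 ± 0.23, limma adjusted p = 0.332).

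The partners of these proteins were read from lists of other genes of the pathway, in which Rab3ip is the 1 gene that the symbol rule also takes in. Of 32 regulators and effectors of the Rab cycle 21 were tested, with 0 called higher and 1 lower in aged than in young. At an unadjusted p under 0.05 stood 6 (28.6%, against 18.3% of all tested genes), 1 higher and 5 lower, and libraries did not overlap for 7 (33.3%, against 23.8%). The gene called was Rilpl1, an effector of Rab proteins, at 3.38, 3.31 and 1.98 FPKM in young and at 0, 0.224 and 0.0244 FPKM in aged libraries (limma adjusted p = 0.022). The NMN libraries held 0.0483, 0.152 and 1.47 FPKM. No aged library reached 1 FPKM, so Rilpl1 passed the filter through the young group, where it was high. The call on Rilpl1 was lost without any 1 of young 1, young 2, young 3 or aged 3 (limma adjusted p up to 0.0922), with no filter on low values (0.0843) and with the replicate block (0.0583).

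Of the 16 tested ESCRT genes without a Vps symbol, 0 were called by limma between aged and young. The same held for the 17 tested partners of retromer, WASH and the Vps34 complex. At an unadjusted p under 0.05 stood 2 of each list (12.5% and 11.8%, against 18.3% of all tested genes). In the 2 comparisons of the NMN group 0 genes of these 3 lists were called by limma. In NMN against aged, 4 had an unadjusted p under 0.05. These were 9.5% of the tested Rab cycle list, 6.2% of the ESCRT list and 5.9% of the retromer list, against 11.3% of all tested genes. In NMN against young there were 3, all of the Rab cycle list (14.3%, against 8.13%).

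A part of the genes was ordered by the 3 libraries that stood apart. Of the 83 tested genes, 16 were lowest and 9 highest within their own group in each of young 1, aged 2 and NMN 1, which is 30.1%, beside 36.4% of all tested genes. The lowest made up 19.3% of the 83 and 15.0% of all tested genes, and the highest 10.8% of the 83 and 21.4% of all. The members named for this were chosen after their values were seen. Rab38, a Rab of lysosome-related organelles, was read at 50.2, 113 and 130.0 FPKM in young, 84.0, 42.9 and 89.7 FPKM in aged and 31.1, 85.7 and 71.9 FPKM in NMN libraries. Rab7 stood at 108, 68.0 and 90.3 FPKM in young 1, aged 2 and NMN 1, below the other 6 libraries at 124 to 182 FPKM. Vps35, the retromer core, stood at 11.4, 6.34 and 11.5 FPKM in these 3 and at 18.1 to 22.4 FPKM in the other 6.

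The opposite order was seen for Rab12, a recycling-endosome Rab, at 7.09, 12.6 and 10.9 FPKM in the 3 and at 2.97 to 5.38 FPKM in the other 6. Snx18, an endocytic BAR-domain nexin, and Rab21 of early endosomes were likewise highest there. The log2 changes from young to aged were 0.19 ± 0.42 for Rab12 and -0.45 ± 0.50 for Rab38, within their error. None of the 25 genes was called by limma in any of the 3 comparisons; Rab33b, one of the 25, had an unadjusted p under 0.05 in aged against young and in NMN against young. The labels name no batch, date or run for the libraries, and what sets the 3 apart was not tested.

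**Figure D5:**
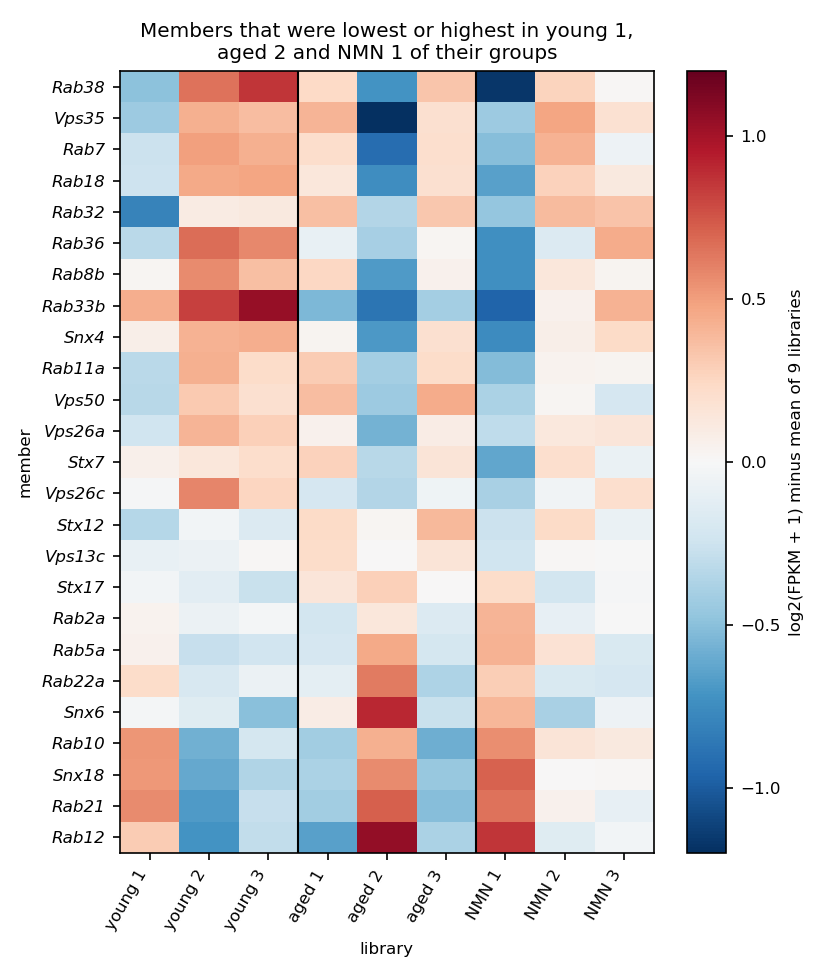
Log2(FPKM + 1) minus the mean of the 9 libraries for the 25 tested genes that were lowest or highest of their group in each of young 1, aged 2 and NMN 1 (rows are genes, columns are libraries, vertical lines part the groups). The rows were chosen for this pattern, which is shown as a description: in each row the 3 libraries are all the lowest, or all the highest, of their groups.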

How the data were processed

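Per the submitters' processing notes, the authors used Bowtie2 2.2.5 and RSEM with the mm9 build; their roles, the annotation and filters are not given in the sources used here. The deposited values are FPKM per gene, though deposited under the name of raw counts: in each library 96.6% to 97.8% of low values of 2659 single-transcript genes were whole reads (within 0.02 reads) once multiplied by length and 1 library constant, which gave the depths. No count test was run. Identifiers were matched to GENCODE M21 symbols (22487, 99.83%), and no coordinates were used.

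FPKM printed are as deposited. Before testing, libraries were put on one scale with trimmed means (trimming 30% by ratio and 5% by level). Genes reaching 1 FPKM in at least 3 libraries were kept (9168 genes) and fitted as log2(FPKM + 1) in limma 3.58.1 (R 4.3.3; group means of all 9 libraries, trended robust variance, Benjamini-Hochberg over all tested genes), so fold changes of low genes are understated. The script was tested on simulated data. Alternatives were no scaling, median-of-ratios scaling, a pseudocount of 0.1, no filter or 10 FPKM, only the groups compared, a replicate block, library quality weights and leaving out libraries.

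Deviations of same-numbered NMN and young libraries correlated across genes at 0.497, 0.119 and 0.142. The first of these values joins NMN 1 and young 1, which stood apart from their groups along with aged 2. Differently numbered libraries reached 0.289 (NMN 2 with young 3) and 0.167 (NMN 3 with young 2), and their remaining correlations were negative. Whether replicate numbers pair these libraries is thus not settled by the correlations, and the labels do not state it. Values printed were fitted without the block, and adding it left 0 members called between NMN and young oocytes. The members set for naming were those called, the 3 smallest p per family and comparison, the 4 most abundant per family and 36 fixed members. Not all of them are given with values here. Rab8a, Rab10, Rab11b, Stx5a, Snx1, Snx27, Vps4b, Vps13a, Vps45 and Vps53 are among those left out. Members given outside this set were chosen after their values were seen. Members and lists were chosen with earlier results of these data known. The list of SNARE partners of the syntaxins is not reported here.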

Additional observations from a re-analysis of the deposited data

How the results depend on the processing

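Of the counts of genes called, that for aged against young, 3 in the fit reported, moved most. It was 1 with FPKM as deposited, 1 with no filter on low values, 1 with the replicate block and 8 with library quality weights, it was 2 with only the groups compared, and it ran from 1 to 4 when 1 library was left out. It was 4 without young 1, aged 2 and NMN 1, an alternative chosen after seeing the data; the cause was not tested. For NMN against aged it was 3 with library quality weights and 0 under every other setting tried. For NMN against young it was 0 under every setting tried, beside 5 at an unadjusted p under 0.05. Same-numbered aged and young libraries correlated at -0.339, -0.267 and 0.314, and same-numbered aged and NMN libraries at -0.372, -0.359 and 0.199. The highest values, 0.448 (aged 2 with young 1) and 0.523 (NMN 1 with aged 2), join the libraries that stood apart. The correlations therefore cannot settle whether replicate numbers pair these libraries. The block changed no call in either NMN comparison. No called value of the 49 genes followed per comparison changed sign; among uncalled values, the largest log2 change to do so was 0.37 in size. With 3 libraries a group and no stated animals, small changes of low genes are the least certain.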
